A study of Mus musculus with 12 samples.

Results

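The cytosolic ribosomal protein genes encode the proteins of the small (40S) and large (60S) subunits of the ribosome outside mitochondria. Members were the genes of the deposited table whose symbol starts with Rpl or Rps followed by a digit, together with Rplp0, Rplp2 and Rpsa; pseudogene names, the Rps6k kinases and Rps19bp1 were left out. This gave 75 of 39032 genes: 29 for 40S proteins, 36 for 60S proteins, 2 for the stalk (Rplp0 and Rplp2) and 8 paralogues of other ribosomal protein genes. Rplp1 and several other members of the family were not analysed here.

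The cells were MC3T3-E1 subclone 14, a clonal mouse pre-osteoblast line of wild-type genotype, so the data describe a single clone of cultured cells. All 4 arms were grown for 5 days in osteogenic medium with ascorbic acid phosphate and β-glycerophosphate. The BMP2+RSPO2 arm received bone morphogenetic protein 2 (BMP2) at 100 ng/ml and R-spondin 2 (RSPO2) at 200 ng/ml, the BMP2 arm and the RSPO2 arm received the single protein at the same dose, and the Control arm received vehicle. Each arm had 3 libraries, described in the series as independent biological replicates, and the question was how the combination compares with each protein alone. Levels are FPKM, which divide a gene's fragments by the length of its transcript and by the size of the library, so that they can be compared between genes; sequencing depth is unknown because no counts were used.

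BMP2 is a secreted inducer of osteoblast differentiation, and RSPO2 is a secreted protein that strengthens Wnt signalling at the cell surface. Ribosomal proteins are made in near-equal numbers for assembly with ribosomal RNA in the nucleolus, and their mRNAs are among the most abundant of a growing cell. Most of these mRNAs begin with a terminal oligopyrimidine (TOP) stretch, through which mTOR signalling and the protein LARP1 regulate their translation and stability. Osteoblasts secrete large amounts of collagen, and lowered ribosome production is known from human ribosomopathies with skeletal defects.

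The start-site windows of 5 members are shown because these genes carry the results below or mark the top of the level range: Rps27l, Rpsa and Rpl35 were lower in the BMP2+RSPO2 arm in every comparison with another arm, Rpl14 was among the least changed, and Rps12 had the highest level. Each window runs from 10 bases before to 20 bases after the annotated RNA start (RefSeq, GRCm38.p6), 5′ to 3′ on the gene's strand, and capitals mark its longest run of pyrimidines. The windows lie at chr9:66946076-66946105 (plus strand) for Rps27l, which has another annotated start not shown, chr9:120127756-120127785 (plus) for Rpsa, chr2:39005112-39005141 (minus) for Rpl35, chr9:120571507-120571536 (plus) for Rpl14 and chr10:23787190-23787219 (minus) for Rps12.
Rps27l: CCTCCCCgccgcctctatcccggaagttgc
Rpsa: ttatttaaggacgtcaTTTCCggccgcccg
Rpl35: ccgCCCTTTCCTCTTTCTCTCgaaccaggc
Rpl14: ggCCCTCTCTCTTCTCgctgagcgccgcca
Rps12: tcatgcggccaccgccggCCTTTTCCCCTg
The longest run had 18 bases in Rpl35, 14 in Rpl14, 11 in Rps12, 7 in Rps27l and 5 in Rpsa. A run of at least 8 pyrimidines stood in 33.3% of the 66 windows of the 55 tested members that matched RefSeq, against 11.2% of the windows of all 27025 genes. The hexamer CGGAAG, searched on either strand in the 300 bases around the start, stood in 60.6% of the members' promoters and in 16.9% of all promoters. TATAAA stood in 7.58% and 13.6% of them. These matches describe letters only.

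Every tested member was abundant. Of the 75 genes, 72 reached 1 FPKM in at least 3 libraries and were tested. Their means over the 12 libraries ran from 53.3 FPKM for Rpl7l1, a paralogue of Rpl7 with a role in 60S assembly, to 3821 FPKM for Rps12, with a median of 581 FPKM; 18 members averaged 1000 FPKM or more and 7 stayed under 100 FPKM. The paralogues Rpl10l and Rpl39l, known as testis genes, were listed at 0 in all libraries, and Rpl3l, known from striated muscle, did not pass 0.04 FPKM. The order of the members by level was nearly the same in all arms, with Spearman's rho between 0.991 and 0.997 across the 72 genes; the arms share gene lengths and annotation, and genes are not independent.

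At the level of whole libraries, all 3 BMP2+RSPO2 libraries had the lowest member medians of the series. The median over the 72 members was 273, 456 and 500 FPKM in BMP2+RSPO2 replicates 1, 2 and 3, then 554, 637 and 662 FPKM in BMP2, 611, 711 and 606 FPKM in RSPO2, and 624, 690 and 756 FPKM in Control libraries. No BMP2+RSPO2 library reached the lowest library of another arm, and replicate 1 lay far below the other two. The members held 4.08% of all FPKM in replicate 1, 14.0% and 14.3% in BMP2+RSPO2 replicates 2 and 3, and 15.1% to 19.2% in the other 9 libraries. Of the FPKM of protein-coding genes only, they held 12.4% in replicate 1, 16.7% and 17.1% in replicates 2 and 3, and 18.9% to 23.1% elsewhere.

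**Figure D1:**
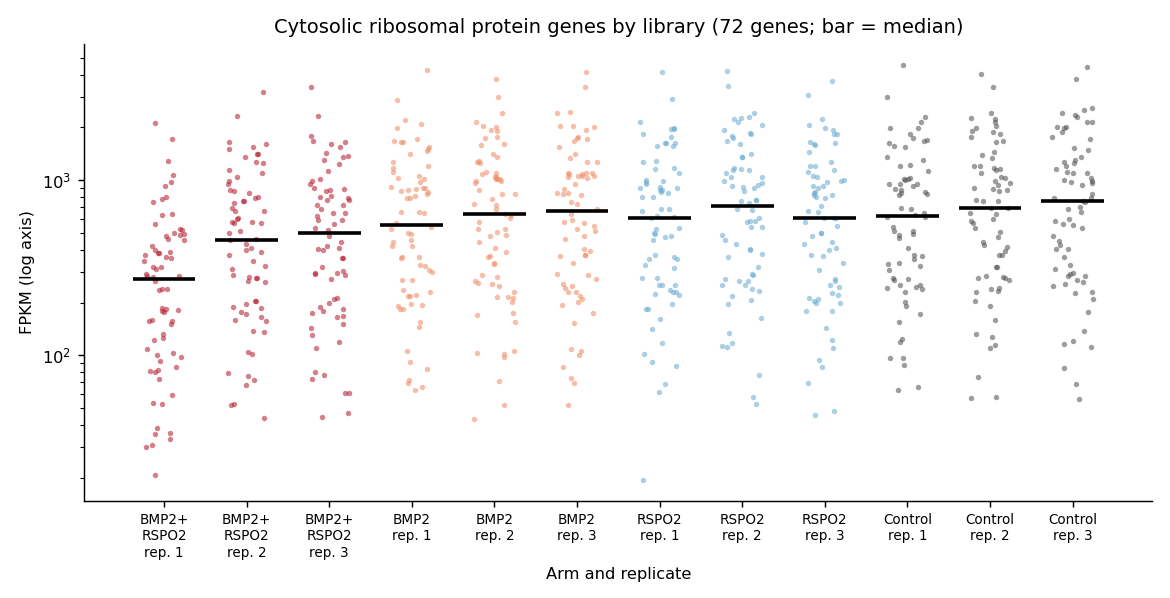
FPKM (log axis) of the 72 tested members in each of the 12 libraries, by arm and replicate; points are genes and bars are medians. The BMP2+RSPO2 medians (273 to 500 FPKM) lie below every other library (554 to 756 FPKM), and replicate 1 is the lowest.

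BMP2+RSPO2 replicate 1 stood apart from the other 11 libraries, so each comparison is given with and without it. Its FPKM values summed to 635139, against 322074 to 380507 in the others. Small RNAs of RNA polymerase III held 19.7% of its sum, against 0.185% to 2.32% elsewhere, and the median replication-dependent histone gene had 82.8 FPKM, against 0.93 to 4.02 FPKM. On the log2 scale, replicate 1 differed from the mean of BMP2+RSPO2 replicates 2 and 3 by a median of -0.88 for members. For all tested genes the median was -0.13. Fits scaled without these RNAs are given below, and the part of these RNAs in the members' values was not tested in another way. The median of all tested genes lay at 6.26 to 6.33 FPKM in the BMP2+RSPO2 arm, against 6.96 to 7.97 FPKM in all remaining libraries. As bulk samples, the libraries cannot tell fewer cells of a type from less RNA per cell. The osteoblast markers were all present, with a summed level of 20885 to 39254 FPKM in BMP2+RSPO2 and 10356 to 16538 FPKM in Control libraries, whereas no adipocyte or skeletal muscle marker reached 1 FPKM; of the markers of other cell types, 3 of 5 for chondrocytes (summed 8.07 to 17.4 FPKM in BMP2+RSPO2 and 3.12 to 7.1 FPKM in Control libraries), 1 of 4 for macrophages (1.36 to 4.35 and 0.79 to 1.41 FPKM) and 2 of 4 for endothelium (0.02 to 5.35 and 0 to 0.18 FPKM) did. In BMP2 libraries the sums were 19136 to 28439 FPKM for osteoblast and 18.2 to 37.3 FPKM for chondrocyte markers. In RSPO2 libraries they were 9568 to 13968 FPKM and 1.55 to 2.09 FPKM. The part of all these markers in the results was not tested. The first replicate of every arm stood apart in cell cycle genes. Their median was 26.7, 8.11 and 7.66 FPKM in BMP2+RSPO2 replicates 1, 2 and 3, then 46.5, 19.0 and 19.5 FPKM in BMP2, 49.2, 10.4 and 9.55 FPKM in RSPO2, and 49.4, 11.3 and 13.0 FPKM in Control libraries.

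Ribosomal protein genes were lower in BMP2+RSPO2 than in Control cells on the deposited FPKM scale, in small-subunit, large-subunit and stalk genes alike. Of the 72 members, 61 fell and none rose at an adjusted p under 0.05 (limma across all tested genes, Benjamini-Hochberg), where 19.4% of the 11548 tested genes fell. Without BMP2+RSPO2 replicate 1, 59 fell, where 18.8% of genes did, and 57 were called in both fits. The median log2 difference of the members was -0.84, beside -0.26 for all tested genes, and -0.53 beside -0.22 without replicate 1. By class, 25 of 29 genes of 40S proteins, 31 of 36 of 60S proteins, both stalk genes and 3 of 5 tested paralogues fell, with medians of -0.86, -0.81, -0.67 and -1.20 on the log2 scale; without replicate 1 these were -0.52, -0.54, -0.40 and -0.59.

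The values of single libraries separated the arms for nearly all members. In 71 of 72 members every BMP2+RSPO2 library lay below every Control library, with or without replicate 1, where this held for 37.3% of tested genes and, without replicate 1, for 48.7%. The exception was Rpl28, a 60S protein gene. Replicate 1 was the lowest library of its arm in nearly all members, so leaving it out could hardly change the members' count. Same-numbered libraries differed by a member median of -1.31, -0.59 and -0.60 on the log2 scale for replicates 1, 2 and 3. The median of all tested genes in the same pairs was -0.40, -0.17 and -0.18.

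**Figure D2:**
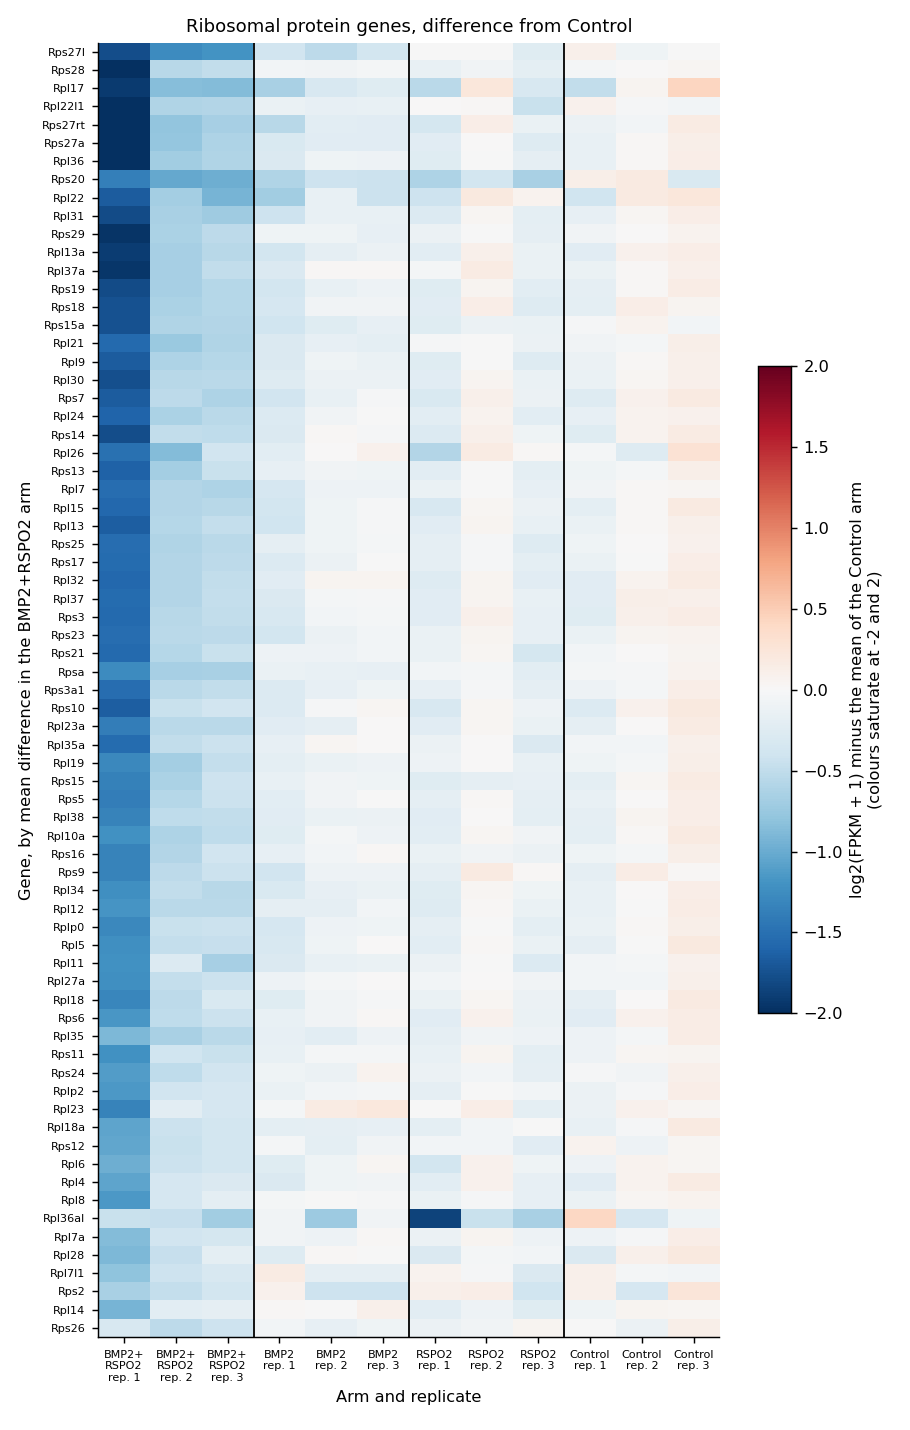
Log2(FPKM + 1) of 71 of the 72 tested members in each library minus the mean of the 3 Control libraries, genes ordered by their mean difference in the BMP2+RSPO2 arm. Blue fills the 3 BMP2+RSPO2 columns, darkest in replicate 1, while the RSPO2 column of replicate 1 is blue at Rpl36al.

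How far these counts hold depends on the scaling and on single libraries. Quantile normalization left 4 of 72 members lower than in Control (7.15% of genes) and 8 without replicate 1 (7.85%). Median-of-ratios scaling, which sets the typical gene equal between libraries, left 4 (7.57% of genes) with all libraries and 4 (8.07%) without replicate 1. The members' median stayed below 0 under both, at -0.46 and -0.57 on the log2 scale with all libraries, and -0.18 and -0.28 without replicate 1. Leaving out a Control library changed the count as well: 29 members fell without Control replicate 1, where 11.6% of genes did, 11 without replicate 2, where 13.2% did, and 8 without replicate 3, where 12.2% did. The counts without Control replicate 2 or 3, and those under both scalings, are shares of the members near that of all genes. With replicates 2 and 3 of every arm only, 67 members fell, where 28.2% of genes did. Scaling without polymerase III, histone, mitochondrial and ribosomal RNAs left fewer members than either scaling above, where 6.66% of genes fell. Without BMP2+RSPO2 replicate 1 it left more than either, where 9.45% of genes fell. Both counts are given in the last section.

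Rps27l fell furthest. This paralogue of the 40S protein gene Rps27 is a known target of p53. Its level was 73.2, 104 and 110 FPKM in BMP2+RSPO2 libraries, 193, 174 and 195 FPKM in BMP2, 251, 251 and 212 FPKM in RSPO2, and 268.7, 238 and 250 FPKM in Control libraries. The BMP2+RSPO2 libraries lay below all others, and the BMP2 libraries lay below the RSPO2 and Control libraries. The log2 difference of BMP2+RSPO2 from Control was -1.41 (SE 0.15, adjusted p = 0.000297), and -1.23 (SE 0.10, adjusted p = 9.73e-05) without replicate 1. It was called lower than Control in all 28 settings tried other than centring on the family median, and its log2 difference there lay between -1.52 and -0.90.

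Rps20, a 40S protein gene, was the other member called lower than Control in all 28 of these settings. It had 109, 138 and 143 FPKM in BMP2+RSPO2 libraries, 185, 212 and 210 FPKM in BMP2, 183, 217 and 179 FPKM in RSPO2, and 306, 320 and 228 FPKM in Control libraries. The BMP2+RSPO2 libraries were again the lowest, and the Control libraries the highest. Its log2 difference from Control was -1.12 (SE 0.16, adjusted p = 0.00131), and the adjusted p was 0.00201 without replicate 1. Setting it beside Rps27l, the RSPO2 arm differed from Control by -0.55 for Rps20 and by -0.08 for Rps27l, and neither passed (limma, adjusted p = 0.659 and 0.9997).

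Rpsa encodes a 40S protein also known as the laminin receptor precursor. Its FPKM were 387, 579 and 590 in BMP2+RSPO2, 837, 832 and 824 in BMP2, 883, 898 and 796 in RSPO2, and 894, 906 and 966 in Control libraries. The 9 libraries outside the BMP2+RSPO2 arm lay close together and above it. It fell by 0.85 on the log2 scale against Control (adjusted p = 0.00464) and by 0.66 (adjusted p = 0.000639) without replicate 1. Rpl35, a 60S protein gene whose product lies at the exit of the peptide tunnel, had 483, 577 and 623 FPKM in BMP2+RSPO2 and 841, 882 and 997 FPKM in Control libraries, a log2 difference of -0.70 (adjusted p = 0.00404) that was -0.59 (adjusted p = 0.0022) without replicate 1. Rpl21, another 60S protein gene, had 185, 325 and 358 FPKM in BMP2+RSPO2 and 515, 531 and 587 FPKM in Control libraries, and fell by 0.96 (adjusted p = 0.00913) and by 0.67 (adjusted p = 0.00109) without replicate 1. In none of these 3 genes did the BMP2+RSPO2 libraries overlap with Control.

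**Figure D3:**
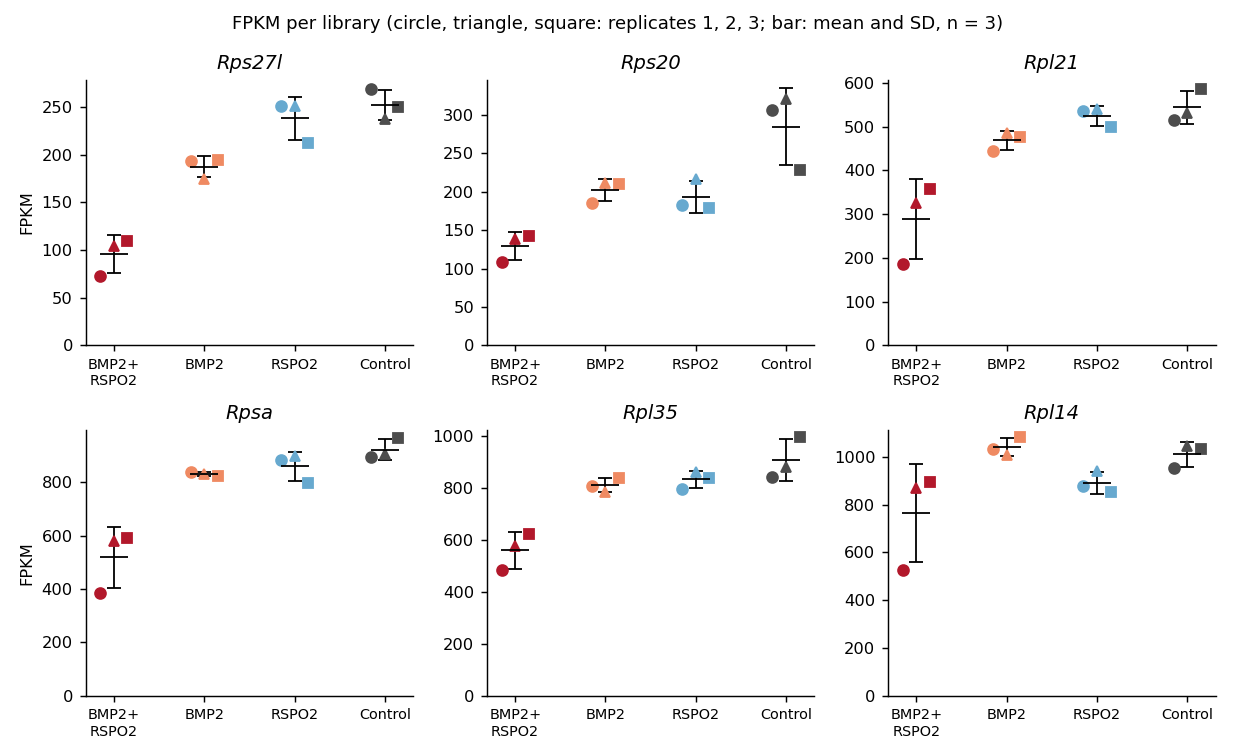
FPKM per library of Rps27l, Rps20, Rpl21, Rpsa, Rpl35 and Rpl14 by arm; symbols are replicates, bars the mean with its SD (n = 3). In all 6 genes the BMP2+RSPO2 means lie below the Control means (95.7 against 252 FPKM for Rps27l, 764 against 1011 FPKM for Rpl14), and replicate 1 is the lowest of its arm.

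Other 60S genes among the smallest p-values were Rpl19, Rpl12 (at the base of the stalk), Rpl10a, Rpl7, Rpl34, Rpl22 and Rpl27a, all called in both fits, with log2 differences from Control of -1.10 to -0.72 with all libraries and -0.81 to -0.46 without replicate 1. Rpl17, the 60S gene with the largest fall, had 421, 880 and 871 FPKM in BMP2+RSPO2 and 1129, 1653 and 2133 FPKM in Control libraries. Its Control libraries spread widely, and its log2 difference of -1.21 (adjusted p = 0.0246) was -0.86 without replicate 1 and then missed the threshold (adjusted p = 0.0508). Among 40S genes, Rps25, Rps15a and Rps27a, which is made as a fusion with ubiquitin, were called in both fits, with log2 differences of -0.89, -0.97 and -1.18, and -0.57, -0.59 and -0.70 without replicate 1.

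In several members the difference was much smaller without BMP2+RSPO2 replicate 1. Rps28, a small 40S protein gene, had 38.4, 189 and 198 FPKM in BMP2+RSPO2 libraries and 271, 280 and 285 FPKM in Control libraries. Replicate 1 lay far below a pair of close values. The log2 difference of -1.29 had an adjusted p of 0.0751, whereas without that library it was -0.53 with an adjusted p of 0.00124. Rpl22l1, the paralogue of Rpl22, behaved alike, with 20.7, 76.6 and 77.2 FPKM in BMP2+RSPO2 and 123, 114 and 112 FPKM in Control libraries; its log2 difference was -1.21 (adjusted p = 0.0519) and, without replicate 1, -0.59 (adjusted p = 0.0119). Rps29, Rps27rt, Rpl36 and Rpl37a were called in both fits, with log2 differences of -1.04, -1.20, -1.14 and -1.03 that were -0.58, -0.72, -0.65 and -0.58 without it. In replicate 1 alone, the difference from Control replicate 1 ran from -2.79 to -0.32 across the members, against -1.21 to -0.14 and -1.29 to -0.21 in replicates 2 and 3.

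The members with the highest levels were lower as well. Rps12 had 2116, 3185 and 3377 FPKM in BMP2+RSPO2 and 4554, 4021 and 4445 FPKM in Control libraries, a log2 difference of -0.61 (adjusted p = 0.0356), and of -0.40 (adjusted p = 0.0142) without replicate 1. Rpl23a, Rps24 and Rpl32, the next in level with Rps26, differed by -0.82, -0.67 and -0.88, and by -0.54, -0.45 and -0.54 without replicate 1, all called. Rps26 was 1 of 2 members, with Rpl36al, in which BMP2+RSPO2 replicate 1 was not the lowest library of its arm, with 1722, 1496 and 1613 FPKM in BMP2+RSPO2 and 2147, 1980 and 2338 FPKM in Control libraries; its replicate 1 was the highest of the arm, and the log2 difference was -0.42 with all libraries (adjusted p = 0.0344) and -0.47 without replicate 1 (adjusted p = 0.00747). At the low end, Rpl18 and Rps19, the gene mutated in part of human Diamond-Blackfan anaemia, differed by -0.71 and -1.01, and by -0.41 and -0.62 without replicate 1, called in both fits. The stalk genes Rplp0 and Rplp2 fell by 0.72 and 0.62 (adjusted p = 0.0376 each), and by 0.43 and 0.36 without replicate 1 (adjusted p = 0.0208 and 0.0219).

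Members that missed the threshold against Control in both fits included Rpl14, Rpl23, Rpl28, Rpl36al, Rpl4, Rpl8, Rps10 and Rps2. Rpl36al, a paralogue of the X-linked Rpl36a, was the least regular of them, with 53.5, 52.5 and 44.4 FPKM in BMP2+RSPO2, 69.7, 43.6 and 69.5 FPKM in BMP2, 19.5, 53.1 and 45.9 FPKM in RSPO2, and 97.2, 57.8 and 68.9 FPKM in Control libraries. Its Control libraries lay above the BMP2+RSPO2 and RSPO2 libraries and overlapped with BMP2. Ribosomal protein genes have many near-identical copies in the genome, and reads may be shared between Rps27l, Rps27rt and Rps27, between Rpl7 and Rpl7l1 or with pseudogenes; how such reads were assigned is not given in the sources used here, so values of these genes are uncertain to that extent. The 5 ribosomal protein pseudogene rows held between them 15.4 to 47.7 FPKM per library.

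Relative to the family itself, few members stood out. The median of the 72 members was set equal in all libraries, an alternative added after the data had been seen. Then 3 members differed between BMP2+RSPO2 and Control, where 28.9% of all tested genes did. This centring takes out the members' shared difference and moves every other gene by the same amount. These shares are therefore not comparable, and the count describes only differences within the family. Rps27l was lower by 0.61 on the log2 scale (adjusted p = 0.0146), and Rpl14 and Rpl4, 60S protein genes named after their values were seen, were higher by 0.35 and 0.23 (adjusted p = 0.0229 and 0.0467). Without replicate 1, 3 were called, where 22% of genes were: Rps27l at -0.70 (adjusted p = 0.0101), Rpl14 at 0.33 (adjusted p = 0.0334) and Rpl8 at 0.26 (adjusted p = 0.0474). Relative to the family median, Rps27l lay at -1.88, -2.12 and -2.18 in BMP2+RSPO2 libraries and at -1.21, -1.53 and -1.59 in Control libraries, in log2 units, without overlap.

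**Figure D4:**
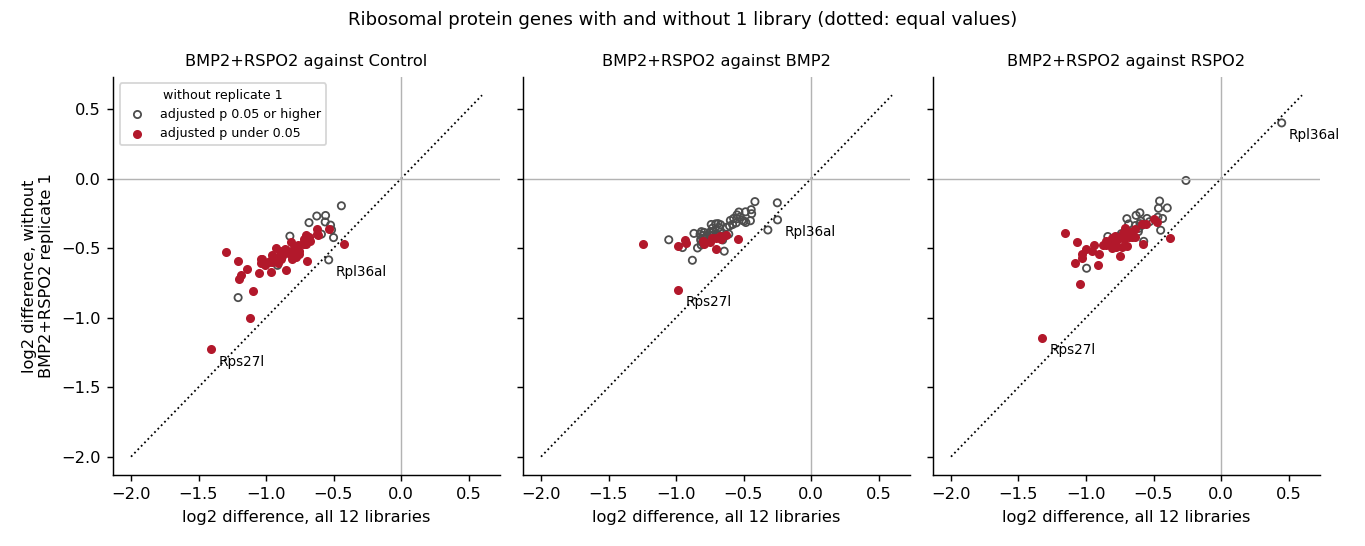
Log2 difference of each of the 72 members in BMP2+RSPO2 against Control, BMP2 and RSPO2, with all 12 libraries (x axis) and without BMP2+RSPO2 replicate 1 (y axis); filled points had an adjusted p under 0.05 without that library. Most points lie above the dotted line of equal values and below 0 on both axes, and Rps27l lies apart at the bottom of each panel.

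Against BMP2 alone, the members were lower in BMP2+RSPO2 cells, but few passed the test in the main model, which leaves out the replicate number. All 72 log2 differences were negative, with a median of -0.70 beside -0.19 for all genes, and of -0.40 beside -0.14 without replicate 1. At an adjusted p under 0.05, 4 members fell, where 3.74% of all genes did. Without replicate 1, 15 fell (4.71% of genes), 3 of them in both fits. Same-numbered libraries of these arms deviated alike from their arm means, with correlations of 0.158 to 0.362. With the number as a block 50 members fell where 13% of genes did, and 60 without replicate 1 where 13.4% did. Every BMP2+RSPO2 library lay below every BMP2 library for 67 members, where 28.6% of genes did so, and 40.2% without replicate 1.

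The 4 members were Rps27l, Rpsa, Rpl35 and Rps20. Rps27l differed by -0.98 (SE 0.15, adjusted p = 0.0118) and by -0.80 (SE 0.10, adjusted p = 0.00456) without replicate 1, and it was the only member called under quantile normalization or median-of-ratios scaling, where 1.09% and 1.12% of genes fell. Rpsa differed by -0.70 (adjusted p = 0.0383) and -0.51 (adjusted p = 0.0097), and Rpl35 by -0.54 (adjusted p = 0.0418) and -0.44 (adjusted p = 0.0285). Rps20 differed by -0.64 (adjusted p = 0.04996) and by -0.52 without replicate 1, which missed the threshold (adjusted p = 0.0758). Leaving out BMP2 replicate 3 ended all calls (0.469% of genes fell), and leaving out another single library other than BMP2+RSPO2 replicate 1 left between 1 and 7, where 0.53% to 4.04% of genes fell. Without BMP2+RSPO2 replicate 1, Rps28, Rps29, Rps25, Rpl21, Rpl27a, Rpl19 and Rpl7 were called too, among others, with log2 differences of -0.47 to -0.41.

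Against RSPO2 alone, the picture resembled that against Control in size. Of 72 members, 46 fell in BMP2+RSPO2 where 21.8% of genes did, and 43 without replicate 1 where 20.8% did, with 37 in both fits. The median log2 difference was -0.72 beside -0.26 for all genes, and -0.42 beside -0.24 without replicate 1. Every BMP2+RSPO2 library lay below every RSPO2 library for 67 members, where this held for 36.1% of genes, and for 47.5% without replicate 1. Rps27l fell by 1.32 (adjusted p = 0.000278) and by 1.14 without replicate 1 (adjusted p = 8.73e-05), and was called in the same 28 settings with log2 differences between -1.43 and -0.86. Rpsa, Rpl35, Rpl21 and Rpl19 followed at -0.75, -0.58, -0.91 and -0.73, and at -0.55, -0.47, -0.62 and -0.49 without replicate 1. Rpl36al was the only member with a positive difference, 0.45 with an adjusted p of 0.353. The count was 2 under quantile normalization, where 8.22% of genes fell, and 1 under median-of-ratios scaling, where 8.3% did. Leaving out RSPO2 replicate 1, 2 or 3 left 11, 4 and 10, where 13.8%, 12.8% and 18.3% of genes fell, so that none of these counts stood clearly above the share of all genes. The comparisons with Control, BMP2 and RSPO2 share the BMP2+RSPO2 libraries and are not independent.

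Few or no members were called for the single proteins. In BMP2 against Control cells no member was called (limma, 1% of genes fell). The median log2 difference was -0.14 beside -0.06 for all genes. Without BMP2+RSPO2 replicate 1, Rps27l was called lower by 0.43 (adjusted p = 0.04), where 2.22% of genes fell. In RSPO2 against Control cells no member was called either (0.0173% of genes fell, 0.0611% without BMP2+RSPO2 replicate 1). The median was -0.11 beside 0.01. The interaction is the RSPO2 effect seen with BMP2 minus that seen without it. It had a member median of -0.60 beside -0.21 for all genes, with no member called (0.286% of genes were lower). Without replicate 1 the member median was -0.28 beside -0.16. Rps27l was then called at -0.72 (limma, SE 0.14, adjusted p = 0.0432), where 1.27% of genes were lower. With all libraries its value was -0.90 (SE 0.22, adjusted p = 0.128).

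Other abundant genes also had lower FPKM in BMP2+RSPO2 than in Control cells. Among genes with a mean of 200 FPKM or more, 51 of 60 members (85.0%) and 73 of 172 other genes (42.4%) were called lower, with medians of -0.84 and -0.47 on the log2 scale, and of -0.52 and -0.38 without replicate 1. Between 1000 and 4000 FPKM, the 18 members had a median of -0.84 and the 19 other genes -0.31, and without replicate 1 -0.53 and -0.29. Length moved with the difference as well. The members' transcripts had a median length of 721 bases, against 2190 bases for the 9500 other tested genes with a length, and other genes of 300 to 700 bases had a median log2 difference of -0.38 (-0.33 without replicate 1), against -0.08 (-0.11) for those of 4000 to 8000 bases. Members of 300 to 700 bases had -0.89 (-0.54). The part of level and length in the members' difference was not tested.

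**Figure D5:**
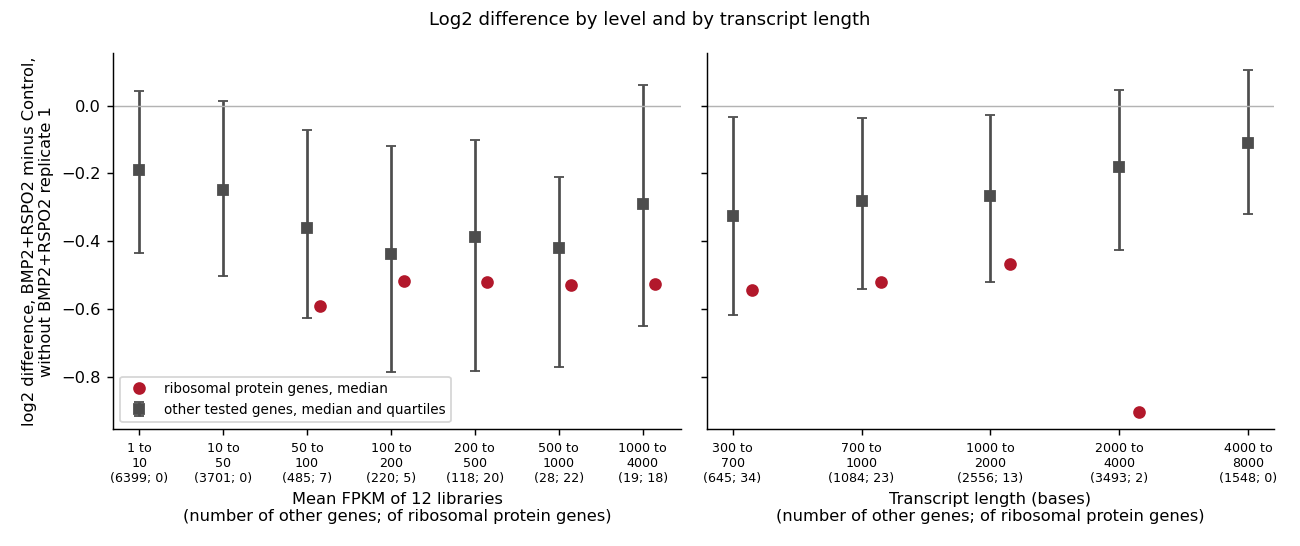
Median log2 difference, BMP2+RSPO2 minus Control without BMP2+RSPO2 replicate 1, of the members (circles) and of all other tested genes (squares, with quartiles), by mean FPKM (left) and by transcript length (right). Members lie below the median of the other genes in each bin, and within their quartiles except for the 2 members of 2000 to 4000 bases; the other genes are lowest between 100 and 1000 FPKM.

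Genes that work with the ribosome differed in how often they were called lower than Control, against 19.4% of all tested genes with all libraries and 18.8% without BMP2+RSPO2 replicate 1. Mitochondrial ribosomal protein genes, which serve the separate ribosome of mitochondria, fell in 30 of 75 cases with a median log2 difference of -0.53, and in 23 cases with -0.47 without replicate 1. Of 15 further genes with TOP mRNAs, 9 fell (7 without replicate 1), with a median of -0.67 (-0.48). Among them, the translation initiation factor gene Eif3e had 134, 167 and 178 FPKM in BMP2+RSPO2 and 270, 311 and 324 FPKM in Control libraries, without overlap, a log2 difference of -0.92 (adjusted p = 0.00229). Vim, for the intermediate filament protein vimentin, and Npm1, for the nucleolar protein nucleophosmin, fell by 0.88 and 0.84 (adjusted p = 0.00163 and 0.0057).

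The other lists had counts near or below the share of all genes. Elongation factor genes had 1 of 4 lower in both fits, Eef1g at -0.55, with a median of -0.37 (-0.27 without replicate 1). Initiation factor genes had 5 of 21 lower (3 without replicate 1), among them Eif3m at -1.04, with a median of -0.34 (-0.29). Of 25 ribosome assembly genes, 2 fell, Fbl (fibrillarin, the methyltransferase of ribosomal RNA) at -0.71 and Gar1 at -0.57, with a median of -0.33; without replicate 1, 3 fell, with a median of -0.41. The median of all tested genes was -0.26, and -0.22 without replicate 1. No gene of these 5 lists rose in either fit. Under quantile normalization, where 7.15% of all genes fell and 6.93% rose, 2 initiation factor genes rose and 1 fell, and the mitochondrial ribosomal protein genes and the further TOP genes had 10 and 5 that fell.

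In the opposite direction, 7 of 8 osteoblast marker genes rose in BMP2+RSPO2 against Control cells, where 3.65% of all genes rose. Without replicate 1, 6 rose (5.25% of genes), and under quantile normalization 4 (6.93%). The alkaline phosphatase gene Alpl had 24.7, 35.9 and 35.0 FPKM in BMP2+RSPO2 and 9.20, 8.64 and 8.30 FPKM in Control libraries, and the collagen gene Col1a1 had 10637, 12137 and 12887 FPKM in BMP2+RSPO2 and 4015, 6454 and 6274 FPKM in Control libraries. Neither gene's arms overlapped. Those of Spp1, another of the 8 markers, did, with 215, 6051 and 6196 FPKM in BMP2+RSPO2 and 201, 1616 and 1402 FPKM in Control libraries. The median log2 difference of the 8 markers was 0.31 against BMP2 alone (0.68 without replicate 1), and 0.73 in BMP2 against Control. Of 24 cell cycle genes none was called with all libraries, at a median log2 difference of -0.69, or without BMP2+RSPO2 replicate 1, at -1.18, a fit that keeps the high first replicates of the other arms. With replicates 2 and 3 of every arm only, 22 of 24 fell, where 28.2% of all genes did, at a median of -0.49 beside -0.18 for all genes. Whether the members' lower share goes with the higher share of such abundant osteoblast mRNAs was not tested.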

How the data were processed

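RNA of 12 MC3T3-E1 cultures was sequenced as stranded poly(A) libraries, per the labels' protocols. Per the submitters' processing notes, cutadapt 1.10, FastQC 0.10.1, HISAT2 2.0, StringTie 1.3.4 and edgeR were used, with builds GRCm38 and mm10; the gene identifiers are those of the C57BL/6NJ strain annotation. The authors deposited FPKM per gene and library, and a p-value and q-value per gene whose comparison is not named, which were not used. No counts were given, so depth and its precision are unknown.

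FPKM were analysed as log2(FPKM + 1) for the 11548 genes that reached 1 FPKM in 3 or more libraries, in a single model of 4 arms (limma 3.58.1, R 4.3.3, variance trend, 8 residual degrees of freedom). Tests were two-sided, adjusted by Benjamini-Hochberg within each of 6 comparisons, called under 0.05, and the script was tested on simulated data. A log2 difference is on this scale and is tested arm minus comparison arm. All values without BMP2+RSPO2 replicate 1 come from a refit of 11 libraries. The members and lists were chosen with earlier results of these data known. Named members were those called with the smallest p (up to 10 per comparison), the 5 largest differences in each direction, the 5 highest and 5 lowest levels, and the paralogue and stalk genes. Others were named after their values were seen. The values of 1 tested member are not reported here by name.

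Replicate numbers were checked from the correlation of same-numbered libraries' deviations from their arm means: every pair exceeded 0.1 for BMP2+RSPO2 with Control (0.199 to 0.368), BMP2+RSPO2 with BMP2 (0.158 to 0.362) and RSPO2 with Control (0.311 to 0.631). The main model held neither a batch term nor the replicate number, and fits with the number as a block are given separately. The first replicate of every arm stood apart in cell cycle genes, and the reason was not tested. Transcript lengths are medians per gene of GENCODE vM21 protein-coding transcripts, and all 72 tested members had one.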

Additional observations from a re-analysis of the deposited data

Results flagged for a closer look

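Rps27l was flagged because the effect of RSPO2 differed between cells with and without BMP2: the interaction was -0.72 on the log2 scale (SE 0.14, adjusted p = 0.0432, limma) without BMP2+RSPO2 replicate 1. RSPO2 changed the gene by -0.80 in the presence of BMP2 and by -0.08 in its absence, all 3 BMP2+RSPO2 libraries lay below all 3 BMP2 libraries, and the RSPO2 and Control libraries overlapped. With all 12 libraries the interaction was -0.90 (SE 0.22, adjusted p = 0.128), and with replicates 2 and 3 of every arm it was -0.70 (SE 0.14, adjusted p = 0.0316). The cause was not tested.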

How the results depend on the processing

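The direction of the members' median was negative in all 5 pairwise comparisons and the interaction under every setting tried other than family centring. Family centring fixes that median, so its counts are not comparable with its shares of all genes. The number of members called was not stable. Counts and medians below are given for BMP2+RSPO2 against Control, BMP2 and RSPO2, in that order, each with the percentage of all tested genes called lower in brackets. With all libraries, the counts of 61, 4 and 46 (19.4%, 3.74%, 21.8%) became 4, 1 and 2 under quantile normalization (7.15%, 1.09%, 8.22%), 4, 1 and 1 under median-of-ratios scaling (7.57%, 1.12%, 8.3%), 2, 0 and 1 when libraries were scaled without short and non-polyadenylated RNAs (6.66%, 0.504%, 8.85%), 38, 2 and 15 when scaled to protein-coding genes (7.86%, 1.15%, 9.8%; added after seeing the data), 16, 1 and 10 with no filter on low values (8.23%, 1.19%, 9.55%), and 3, 0 and 2 in either direction with the family median centred (28.9%, 8.04% and 17.1% in either direction; also added). Medians that moved by more than the spread of libraries (0.26) were -0.46 (Control) and -0.40 (RSPO2) under quantile normalization, -0.44 (RSPO2) under median-of-ratios scaling and -0.55 (Control) under protein-coding scaling.

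Without BMP2+RSPO2 replicate 1, the counts were 8, 1 and 6, of the last 1 higher (Rpl14), under quantile normalization (7.85%, 1.7%, 8.74%), 4, 1 and 1 under median-of-ratios scaling (8.07%, 1.96%, 9.04%), 21, 3 and 6 without short and non-polyadenylated RNAs (9.45%, 1.93%, 10.9%), 35, 6 and 15 under protein-coding scaling (10.3%, 2.3%, 13.3%) and 3, 0 and 2 in either direction with the family centred (22%, 5.79%, 15.3% in either direction), all added after seeing the data. The medians were then -0.18, -0.14 and -0.12 under quantile normalization, -0.28, -0.23 and -0.16 under median-of-ratios scaling, -0.36, -0.27 and -0.25 without short and non-polyadenylated RNAs, and -0.37, -0.28 and -0.30 under protein-coding scaling, with interactions of -0.073, -0.098, -0.15 and -0.20. Protein-coding scaling called 1 member in BMP2 against Control and 1 in the interaction. Rps24 reversed in BMP2+RSPO2 against RSPO2, at 0.020 under quantile normalization.

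With the replicate block, 50 members fell against BMP2 where 13% of genes did (60 and 13.4% without BMP2+RSPO2 replicate 1, with 3 in BMP2 against Control and 1 in the interaction); against Control and RSPO2 the block gave 66 and 63, where 28.4% and 30.2% of genes fell. For BMP2+RSPO2 with RSPO2 the correlations of same-numbered libraries were 0.161, 0.352 and -0.124 for replicates 1, 2 and 3. For BMP2 with Control they were 0.479, 0.246 and 0.0789. Replicate 3 stayed below 0.1 in both, so pairing by number was incomplete for these arms. With replicates 2 and 3 only, 57 members fell against BMP2 where 17% of genes did, and the interaction had a median of -0.32 and 1 call. Leaving out each library in turn gave 8 to 65 calls against Control, where 11.6% to 19.5% of genes fell. It gave 0 to 15 against BMP2, where 0.469% to 4.71% fell, and 4 to 60 against RSPO2, where 12.8% to 21.8% fell. The lowest of these counts were shares of the members near or below those of all genes. In BMP2 against Control and in the interaction it gave 0 to 1 each. Over the same refits the medians ran from -1.02 to -0.53, from -0.88 to -0.40, from -0.90 to -0.42 and, for the interaction, from -0.76 to -0.28. The causes were not tested, and these refits also held fewer libraries.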
